A study of Mus musculus with 30 samples.

Results

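Zone-free gaps are the long stretches of the genome in which no replication initiation zone was listed, and 372 of the 2737 intervals between initiation zones (13.6%, Wilson 95% interval 12.4 to 14.9%) were such gaps. The deposited list of 2844 zones was sorted by position, overlapping zones were joined into 2756, the intervals between consecutive zones of a chromosome were taken, and those of 1.5 Mb or more were kept. The gaps were thus chosen by the measured zone positions, and their lengths and places are given as a description only. The study measured how old and new histones pass to the sister chromatids after replication (SCAR-seq), in E14TG2a mouse embryonic stem cells that were wild type or carried MCM2-2A, a change in MCM2 (a helicase subunit of the replication fork) at its histone-binding part. The zones came from the wild-type OK-seq library, which sequences Okazaki fragments; these cells were kept in 2i/LIF medium and labelled with 10 µM EdU, a thymidine analogue, for 2 min. It is 1 library of 1 cell line and has no replicate, so no value below carries replicate error or a test, and the other 29 samples were not analysed here.

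Replication starts in broad zones in which many possible origins share the firing, and forks run outwards from them. OK-seq finds such zones where the strand that carries Okazaki fragments switches sides. In mammalian cells initiation zones tend to lie beside active genes in early-replicating chromatin, whereas gene-poor, lamina-associated chromatin tends to replicate late, and very long genes of neurons are known there. A gap here is only the absence of a listed zone, and the thresholds used to call zones were not given in the sources used here.

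Promoters in the gaps ranged from CpG-dense ones to ones with no CpG at all, and 4 are shown because they mark this range. They are RefSeq windows of 300 bases on GRCm38.p6, from 250 bases before an annotated start site to 50 after it, on the coding strand, with each CpG in capitals. The start site is the one closest to the outer end of the gene, and that of Zfp551 lay inside the gene. Zdhhc23 (chr16:43979760-43980059, minus strand), a protein palmitoyltransferase, had the most CpG among the genes of the 12 longest gaps. Vmn1r67 (chr7:10446539-10446838, plus strand), a pheromone receptor, was the receptor gene farthest from any zone. Zfp551 (chr7:12422442-12422741, minus strand), a zinc finger gene of the same gap, was the gene with a CpG-rich promoter farthest from a zone. Lrrc4c (chr2:96317919-96318218, plus strand), a synaptic adhesion protein, was the longest gene of the 12 longest gaps.
Zdhhc23: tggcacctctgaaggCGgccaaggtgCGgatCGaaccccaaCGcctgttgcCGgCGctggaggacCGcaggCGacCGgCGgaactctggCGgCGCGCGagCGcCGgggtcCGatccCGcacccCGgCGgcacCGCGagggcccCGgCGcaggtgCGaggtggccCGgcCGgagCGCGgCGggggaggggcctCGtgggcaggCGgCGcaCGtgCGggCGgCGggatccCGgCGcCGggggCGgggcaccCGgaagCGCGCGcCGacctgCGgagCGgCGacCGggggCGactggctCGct
Vmn1r67: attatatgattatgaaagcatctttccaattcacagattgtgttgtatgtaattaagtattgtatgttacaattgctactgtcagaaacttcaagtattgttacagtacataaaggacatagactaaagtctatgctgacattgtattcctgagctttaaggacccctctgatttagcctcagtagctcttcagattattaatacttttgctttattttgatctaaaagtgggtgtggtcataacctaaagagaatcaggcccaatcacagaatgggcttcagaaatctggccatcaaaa
Zfp551: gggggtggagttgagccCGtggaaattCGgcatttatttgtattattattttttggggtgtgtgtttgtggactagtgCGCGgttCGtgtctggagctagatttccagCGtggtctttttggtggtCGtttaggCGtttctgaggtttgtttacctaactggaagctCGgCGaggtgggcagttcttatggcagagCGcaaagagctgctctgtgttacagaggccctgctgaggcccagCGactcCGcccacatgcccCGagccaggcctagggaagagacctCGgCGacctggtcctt
Lrrc4c: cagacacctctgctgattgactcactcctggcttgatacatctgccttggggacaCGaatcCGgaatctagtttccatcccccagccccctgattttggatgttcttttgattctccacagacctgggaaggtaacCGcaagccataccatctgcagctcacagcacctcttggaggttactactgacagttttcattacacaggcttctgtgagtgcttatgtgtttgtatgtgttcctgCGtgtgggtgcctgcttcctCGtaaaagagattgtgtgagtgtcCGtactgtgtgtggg
The windows held 52 CpG in Zdhhc23, 0 in Vmn1r67, 16 in Zfp551 and 6 in Lrrc4c. The GC content was 80.7% in Zdhhc23, 34.7% in Vmn1r67, 54.7% in Zfp551 and 50.0% in Lrrc4c. All 4 genes lay deep in their gaps, at 1637 kb, 4123 kb, 2169 kb and 2290 kb from the nearest zone in the same order. The genes were picked for their distance or from the longest gaps, so these distances describe the examples only.

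The gaps also held microRNA genes, and the mature forms below are shown because they lie far from zones or share a seed, the bases 2 to 8 that pair with target messages (in capitals; sequences from RefSeq, GRCm38.p6, written 5′ to 3′). The gene farthest from a zone was Mir297-1, at 3633 kb on chromosome 7, and Gm51268, Mir9-2 and Mir568 followed at 1976 to 1984 kb. Mir9-2, whose product miR-9 acts in neural development, lay 1984 kb from the nearest zone on chromosome 13, and Mir30a and Mir30c-2 lay 1715 kb and 1695 kb from a zone in 1 gap of chromosome 1.
miR-9-5p: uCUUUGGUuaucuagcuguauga
miR-30a-5p: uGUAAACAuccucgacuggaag
miR-30c-5p: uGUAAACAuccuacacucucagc
The products miR-30a-5p and miR-30c-5p share the seed GUAAACA. On chromosome 7 a gap of 1618 kb with 2 protein-coding genes held 13 genes of the Mir344 family, the most microRNA genes of any long gap.
miR-344d-1-5p: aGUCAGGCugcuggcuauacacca
miR-344d-3-5p: aGUCAGGCuagugguuauacucc
miR-344b-5p: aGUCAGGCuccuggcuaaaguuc
miR-344c-5p: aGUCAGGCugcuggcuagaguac
miR-344-5p: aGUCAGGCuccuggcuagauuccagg
miR-344g-5p: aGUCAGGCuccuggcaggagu
These 6 mature names share the seed GUCAGGC, and their remaining bases differ. A related pair of clusters, with the let-7 seed GAGGUAG in the middle, lay in gaps of chromosomes 16 and 17.
miR-99a-5p: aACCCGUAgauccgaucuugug
let-7c-5p: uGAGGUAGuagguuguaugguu
miR-125b-5p: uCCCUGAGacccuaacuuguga
miR-99b-5p: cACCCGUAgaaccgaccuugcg
let-7e-5p: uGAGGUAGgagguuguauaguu
miR-125a-5p: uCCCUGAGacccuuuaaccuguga
The first 3 of these lay 524 to 571 kb from a zone in a gap of chromosome 16 with 1 protein-coding gene, and the last 3 lay 61.2 to 61.8 kb from a zone in a gap of chromosome 17 with 48. In all, 167 of 1136 microRNA genes (14.7%, 12.8 to 16.9%) lay wholly in 106 of the long gaps, a smaller share than the 22.3% of genes of all kinds, and 150 of the 167 had a mature sequence.

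Long gaps took up a large part of the chromosomes. They summed to 839 Mb, or 35.4% of the 2371 Mb between the first and the last zone of chromosomes 1 to 19, against 1221 Mb in the 2365 shorter intervals and 312 Mb in zones. The median long gap was 1967 kb (95% interval from order statistics, 1894 to 2068 kb), and the gaps ran from 1501 to 8268 kb, the middle 50% of them from 1704 to 2477 kb, against a median of 508 kb over all intervals. Of the 372 gaps, 178 reached 2 Mb, 52 reached 3 Mb, 13 reached 4 Mb and 6 reached 5 Mb. The 5 gaps just inside the limit measured 1501, 1502, 1502, 1503 and 1503 kb, and the 5 intervals just outside it 1499, 1498, 1498, 1494 and 1493 kb. Many long gaps were neighbours, since 79 pairs were parted by a single joined zone and 140 gaps belonged to such a pair. On each of chromosomes 4, 5, 13 and 16 a run of 4 gaps spanned 8.54 to 9.87 Mb with only single joined zones between them. By chromosome, the share of the stretch in long gaps ran from 22.2% on chromosome 19 and 25.5% on chromosome 11 to 41.7% on chromosome 10 and 47.4% on chromosome 18. Since no arm of a listed zone exceeds 100 kb, a gap may include the outer part of a wider zone.

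The gaps were poor in genes but not empty. Of the 20558 protein-coding genes of the annotation, 3839 lay wholly in a long gap, which is 18.7% (18.1 to 19.2%) of genes on 35.4% of the stretch. Over genes of all kinds the share was 22.3% (10431 of 46709). The gaps held 4.58 protein-coding genes per Mb (exact Poisson 95% interval 4.43 to 4.73) and 12.4 genes of all kinds per Mb. To set them beside shorter intervals, which cannot hold a long gene whole, genes were also placed by their midpoints, which put 19.9% of protein-coding genes in long gaps. By midpoints there were 4.88 genes per Mb in long gaps (4.73 to 5.03), against 9.44 in shorter intervals (9.27 to 9.62) and 14.9 in zones (14.4 to 15.3). Gene bodies took 30.4% of bases in long gaps, against 47.0% in shorter intervals and 45.7% in zones. These intervals treat genes as independent and cover counting error only.

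Gene density was lower in each longer class of interval, on both sides of the 1.5 Mb limit. It was 15.9 gene midpoints per Mb in intervals under 250 kb, 12.3 from 250 to 500 kb, 9.35 from 500 to 1000 kb and 6.42 from 1000 to 1500 kb. Long gaps followed with 5.63 genes per Mb from 1500 to 2000 kb, 4.83 from 2000 to 3000 kb and 3.71 (3.46 to 3.99) from 3000 kb upwards. Without olfactory and vomeronasal receptors, genes for smell and pheromone detection that sit in large clusters, the 3 classes of long gaps held 4.37, 4.23 and 2.91 genes per Mb. Gene-body cover fell in the same order, with 38.1% of bases from 1000 to 1500 kb, 32.8% from 1500 to 2000 kb and 25.1% from 3000 kb upwards.

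**Figure D1:**
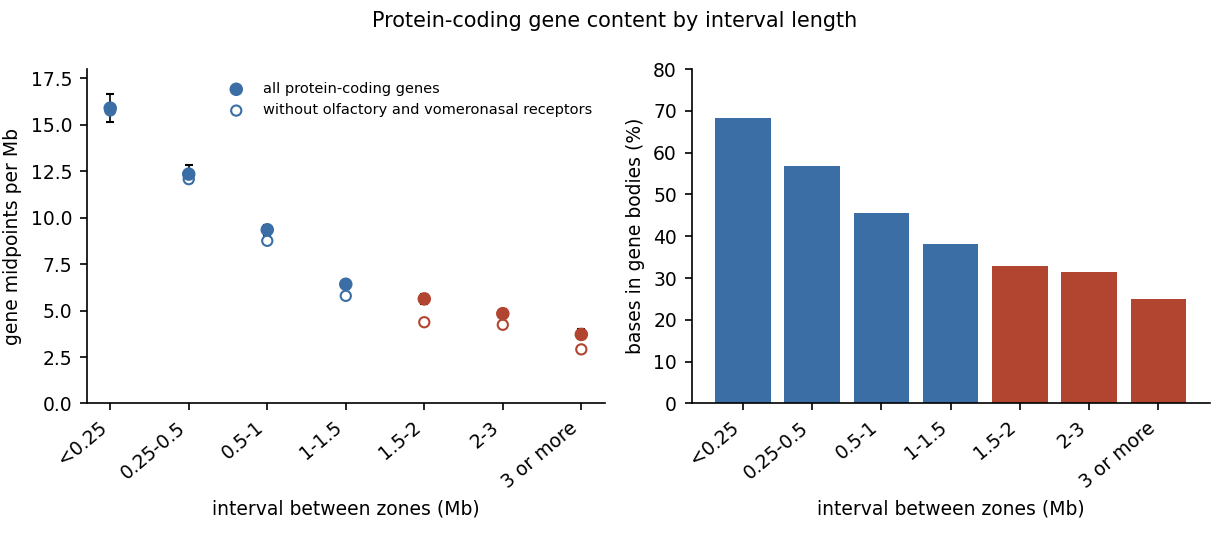
Left, protein-coding gene midpoints per Mb with exact Poisson 95% intervals, and right, the percentage of bases in gene bodies, for 7 classes of interval length in Mb (red, long gaps; blue, shorter intervals; open circles, without olfactory and vomeronasal receptors). Density goes down from 15.9 genes per Mb in the shortest class to 3.71 in the longest, with 6.42 and 5.63 genes per Mb in the classes on either side of 1.5 Mb.

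Genes were spread unevenly among the gaps. The median gap held 5 protein-coding genes (quartiles 2 and 11) and the richest 113. The 133 gaps with 1 to 4 genes made up 34.9% of the gap length and held 8.28% of its genes, whereas the 48 gaps with 20 or more genes made up 14.3% of the length and held 52.6% of its genes. The 10 richest gaps alone held 866 genes, or 22.6%. In 22 gaps at least 10 members of 1 of the 19 gene lists lay together, and these gaps held 1326 genes, or 34.5%, on 58.0 Mb. The other 350 gaps held 3.22 genes per Mb (3.09 to 3.35).

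**Figure D2:**
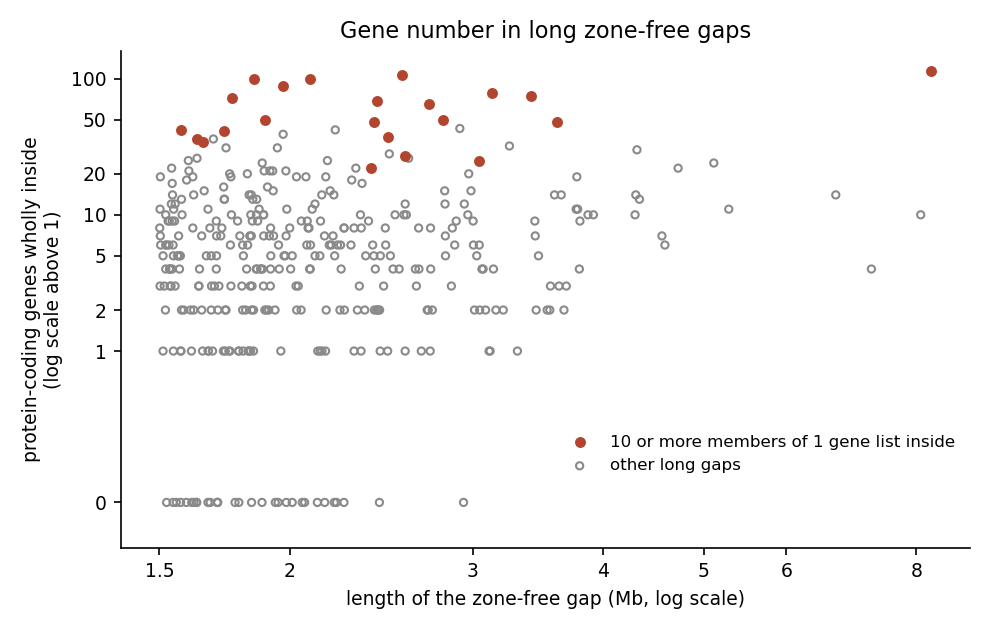
Number of protein-coding genes wholly inside each of the 372 long gaps (vertical axis, log scale above 1) against gap length in Mb (log scale). The 22 gaps with 10 or more members of 1 gene list (red) hold 22 to 113 genes each, and among the other gaps (grey circles) 31 hold none.

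The longest gaps differed in what they held. The longest, on chromosome 7 from 6324001 to 14592000, spanned 8268 kb and held 113 genes, of which 53 were vomeronasal, 13 Zfp zinc finger and 8 olfactory receptor genes. Near its middle lay Vmn1r67 and the zinc finger gene Zik1, 4123 kb and 4097 kb from the nearest zone. Usp29, which encodes a deubiquitinating enzyme, was its longest gene at 237 kb. The second, on chromosome 2 from 94028001 to 102107000, was nearly as long at 8079 kb but held 10 genes, among them Lrrc4c with a body of 1314 kb and Rag1 and Rag2, the recombinase genes of lymphocytes. The third, on chromosome 5 from 53583001 to 60827000, held only Cckar, Tbc1d19, Stim2 and Pcdh7 in 7244 kb, which is 0.552 genes per Mb (0.150 to 1.41). Of these, Pcdh7, a protocadherin of neurons, stood alone at 2694 kb from a zone, while the cholecystokinin receptor gene Cckar, Tbc1d19 and the calcium sensor gene Stim2 lay 115 to 416 kb from the left edge.

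The other long gaps among the 12 longest were mixed in content. The gap of 4588 kb on chromosome 13 held 6 genes, including Mef2c, a transcription factor of muscle and neurons, at 1749 kb and Rasa1, a Ras GTPase activator, at 1054 kb. In the gap of 4558 kb on chromosome 7 the nuclear receptor gene Nr2f2 lay 1919 kb from a zone, and the growth factor receptor gene Igf1r lay 224 kb from one. The gap of 5284 kb on chromosome 11 held Egfr, the receptor of epidermal growth factor, at 962 kb. On chromosome 18 the gap from 16560001 to 20897000 held 13 genes, of which 6 were desmogleins and 3 desmocollins, the adhesion proteins of desmosomes. The gap of 4313 kb on chromosome 16, with Zbtb20, a transcription repressor gene of 759 kb, had gene bodies over 70.2% of its bases. In the other 11 of these 12 gaps that share was 6.61 to 26.3%.

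Large families filled some gaps almost alone and shared others with many other genes. On chromosome 2 a gap from 84839001 to 87405000 held 96 olfactory receptor genes among 106, and the gap from 87545001 to 89517000 held 88 genes, all of them olfactory receptors. On chromosome 7 the gap from 102296001 to 104143000 held 89 olfactory receptor genes and 5 beta-globin genes (Hbb) among 100. A gap of chromosome 11, from 98227001 to 100322000, held 27 keratin and 23 keratin-associated genes among 100, and beside them housekeeping genes such as Smarce1, a chromatin remodeller subunit, 982 kb from a zone. The gap of chromosome 8 from 18963001 to 22378000 held 29 alpha- and 24 beta-defensin genes among 74. All 22 genes of the prolactin family list found in long gaps, which encode placental hormones, lay in 1 gap of chromosome 13 with 25 genes in 3038 kb. Counted by the symbol stem Prl, this gap held 23 genes. Gene-body cover differed among these gaps, against 30.4% over all long gaps. It was 7.09% in the gap of 88 olfactory receptors, 6.49% in the prolactin gap and 13.9% in the gap of 96 olfactory receptors. The chromosome 7 olfactory gap had 19.9%, the defensin gap 20.1% and the keratin gap 40.7%.

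By list, families of clustered receptors and secreted proteins lay in long gaps far more often than all protein-coding genes (18.7%). The share was 49.7% (548 of 1103) for olfactory receptors, 61.3% (214 of 349) for vomeronasal receptors and 56.6% (30 of 53) for taste and trace amine receptors. It was 66.1% (74 of 112) for keratins and keratin-associated proteins, 74.6% (53 of 71) for defensins, 88.0% (22 of 25) for the prolactin family and 66.7% (40 of 60) for C-type lectins and killer receptors of immune cells. These members are not independent, since the 548 olfactory receptors lay in 18 gaps, the 214 vomeronasal receptors in 11 and the 53 defensins in 1. The olfactory share rests on gaps of 1.5 to 2 Mb, since with a minimum of 2 Mb it was 15.5%, against 10.2% of all genes, and with a minimum of 1 Mb it was 68.2%, against 30.4%. Vomeronasal receptors were at 49.6% with the 2 Mb minimum. Other clustered families did not follow, with 1.61% (1 of 62) of serpins, which inhibit proteases, 17.5% (68 of 388) of Zfp genes and 20.2% (20 of 99) of cytochrome P450 genes, though with a minimum of 1 Mb the share of cytochrome P450 genes was 45.5%. Receptor families hold some closely similar copies, and how well reads align to them, or to unsequenced stretches, was not tested.

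Genes of neuronal contact lay both in long gaps and at zones. Of 76 genes of synaptic adhesion and axon guidance, 25 (32.9%, 23.4 to 44.1%) were in 24 different gaps, with Lrrc4c at 2290 kb, Cntnap4 at 1230 kb and Slitrk6 at 920 kb from a zone. A further 36.8% overlapped a zone, against 32.9% of all genes, and the median distance from a zone was 71.4 kb, against 70.3 kb. By midpoints, which also count long genes that cross a gap edge, 44.7% of this list lay in long gaps, against 19.9% of all genes. The contrast between adhesion lists depends on the limit, since with a minimum of 1 Mb 63.3% of cadherins and 42.1% of synaptic adhesion genes lay in gaps, against 30.4% of all genes. Glutamate and GABA receptors (26.2%, 11 of 42), voltage-gated channels (23.5%, 27 of 115) and cadherins (21.1%, 19 of 90) had shares whose intervals include 18.7%. By midpoints the shares of these lists were 31.0%, 26.1% and 22.2% in the same order, against 19.9%. Gabrg1 and Gabra2, neighbouring GABA receptor subunit genes, lay 1153 kb and 1051 kb from a zone, and the potassium channel genes Kcnv1 and Kcnc2 lay 1782 kb and 1321 kb from one. Developmental transcription factors were at 17.8% (24 of 135), among them Pou3f3 of the developing brain, 1119 kb from a zone on chromosome 1, with the non-coding gene Pantr1 beside it at 1124 kb.

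Ribosomal protein genes were rarer in long gaps, with exceptions, and proteasome genes were so less clearly. Only 6.25% of ribosomal protein genes (5 of 80, 2.70 to 13.8%) and 8% of proteasome genes (4 of 50, 3.15 to 18.8%) lay there, and the upper bound for proteasome genes reaches that of all genes. For comparison, 57.5% of ribosomal protein genes and 36.0% of proteasome genes overlapped a zone, against 32.9% of all protein-coding genes. The exceptions include Rpl28, 1083 kb from a zone in a gap on chromosome 7. Of 48 DNA replication genes 7 (14.6%, 7.25 to 27.2%) lay in long gaps, an interval that includes the 18.7% of all genes, and 47.9% overlapped a zone. Among the 7 were the ligase gene Lig1 at 1281 kb and the primase gene Prim2 at 1068 kb. The kinase gene Cdc7 lay at 1021 kb and the licensing factor gene Cdc6 at 681 kb. Of 24 pluripotency genes 4 (16.7%, 6.68 to 35.9%) lay in long gaps, near the 18.7% of all genes. A larger part of this list, 14 genes (58.3%), overlapped a zone, against 32.9% of all protein-coding genes. Of the 4 in gaps, Sall4 lay 554 kb from a zone, Klf4 137 kb, Dppa4 96.7 kb and Dppa2 71.5 kb.

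**Figure D3:**
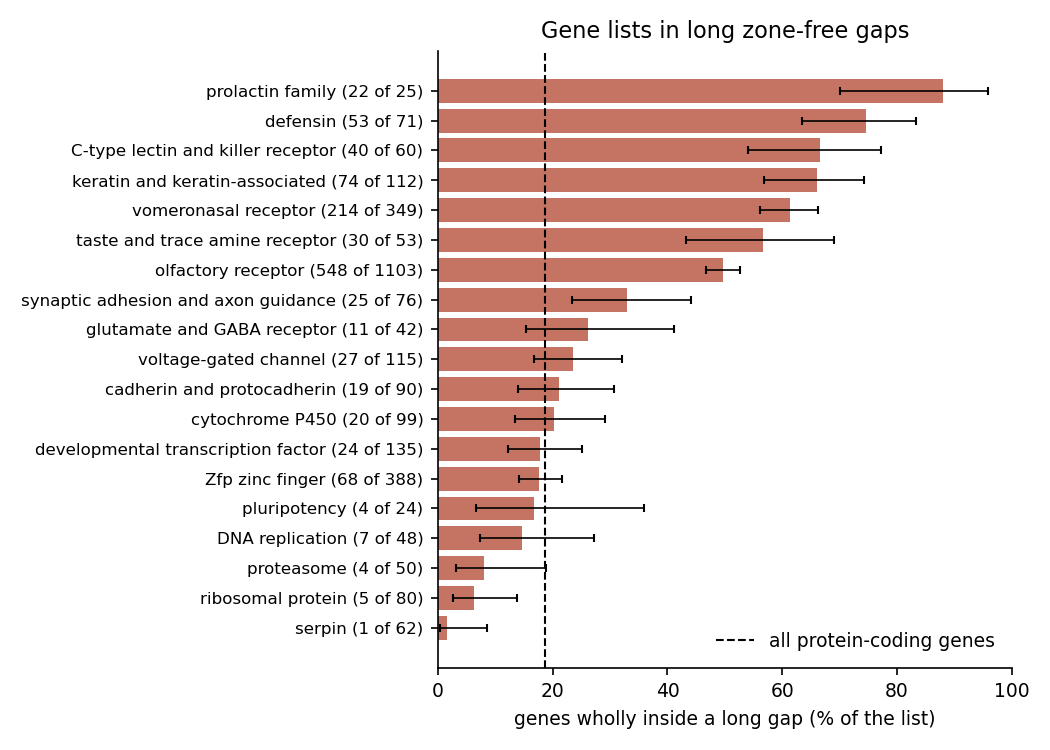
Percentage of each gene list that lies wholly in a long gap (bars, with the counts beside the names and Wilson 95% intervals as lines), against 18.7% of all protein-coding genes (dashed line). The 7 lists from olfactory receptors to the prolactin family lie between 49.7% and 88.0%, and ribosomal protein genes and serpins lie at 6.25% and 1.61%.

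Very long genes were frequent in the gaps, and very short ones were so in part as receptors. By midpoints, 28.9% of genes under 5 kb lay in a long gap, against 19.9% of all genes. Without the olfactory and vomeronasal receptors it was 20.01% (653 of 3263, 18.7 to 21.4%), against 13.9% of genes of 5 to 20 kb. Over all lengths, 3327 of 19106 genes lay there without these receptors, so the 20.01% is not to be set beside the 19.9%. With receptors kept, the share was 14.6% for genes of 5 to 20 kb and 16.6% for genes of 20 to 50 kb. It was 18.3, 22.8 and 25.8% for genes of 50 to 100, 100 to 200 and 200 to 500 kb. Among genes of 500 kb or more it was 44.9% (97 of 216, 38.4 to 51.6%). The median gene wholly in a long gap was 13.4 kb long (12.3 to 14.7 kb), against 15.3 kb in shorter intervals, 24.03 kb for genes overlapping a zone and 17.6 kb over all genes. Since a short interval cannot hold a long gene whole, genes were also placed by midpoints, which gave medians of 15.6 kb in long gaps (14.4 to 16.8 kb) and 20.1 kb in shorter intervals (19.4 to 20.9 kb). Without receptors these were 23.3 kb in long gaps (21.9 to 24.7 kb) and 22.2 kb in shorter intervals (21.4 to 23.0 kb), with intervals that overlap.

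In 24 gaps a single gene covered 50% or more of the bases. Gpc5, a cell-surface proteoglycan, covered 82.1% of a gap of 1706 kb, Macrod2 81.7% of one of 2445 kb, and Fhit, which spans a known fragile site, 81.3% of one of 1704 kb. The neuronal scaffold gene Dlg2 covered 76.2% of its gap and Cntnap2, the longest gene wholly in a gap at 2241 kb, 71.9%. Others of the longest were Nrxn3, a presynaptic adhesion protein, at 1612 kb, and Pcdh15, a cadherin of hair cells, at 1554 kb. The nearest zone was 106 kb from Cntnap2, 166 kb from Macrod2, 198 kb from Dlg2, 313 kb from Nrxn3 and 355 kb from Pcdh15. Over all gaps the median gene-body cover was 28.9% (quartiles 14.3 and 45.7%), with 70 gaps under 10% and 14 at 75% or more.

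No protein-coding gene lay wholly in 31 gaps (8.33%, 5.93 to 11.6%), and none even overlapped 14 of these (3.76% of all long gaps). Lacking a gene was not particular to long gaps. By midpoints, 5.11% of long gaps held no protein-coding gene, against 9.98% of shorter intervals. The 31 gaps measured 1524 to 2939 kb and lay on 15 chromosomes, with at most 4 on 1 chromosome. The longest, on chromosome 1 from 113127001 to 116066000, began 1262 kb after the end of Dsel, and Cntnap5a overlapped its right end. The gap of 2440 kb on chromosome 18 lay between Celf4, an RNA-binding protein of neurons 2017 kb to its left, and Pik3c3, a lipid kinase 53.6 kb to its right. The gap from 89435001 to 91643000 on chromosome 14 lay between the protocadherins Pcdh20 and Pcdh9, at 964 kb and 1371 kb. All 31 held other annotated genes, 2 to 18 each and 252 in all. Of these, 115 (45.6%) were pseudogenes and 95 (37.7%) long non-coding RNAs. The whole annotation had 8797 pseudogenes and 12322 long non-coding RNAs, which are 18.8% and 26.4% of all 46709 genes. Those 2 shares are not a like comparison, since the 46709 include 20558 protein-coding genes, which these gaps lack by choice.

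Some other kinds of gene differed from genes of all kinds (22.3%) in how often they lay in long gaps. The share was 32.2% (2834 of 8797, 31.2 to 33.2%) for pseudogenes and 26.3% (23.6 to 29.2%) for small nuclear RNAs. Long non-coding RNAs (23.5%, 22.7 to 24.2%) and small nucleolar RNAs (23.1%, 20.9 to 25.5%) lay near the 22.3%. Transfer RNA genes were rare there, at 4.40% (17 of 386). None of the 374 annotated V segments of antigen receptors lay in a long gap, where 3 would be 0.802%. These clusters lay in intervals of 316 to 1480 kb or overlapped zones, and the longest of these intervals, 1480 kb with 31 kappa V segments, was just below the 1.5 Mb limit.

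Within the gaps, genes thinned out with distance from the zone. Gene midpoints per Mb were 9.14 (8.19 to 10.2) within 50 kb of the nearer edge, 7.53 from 50 to 100 kb, 6.69 from 100 to 200 kb, 5.44 from 200 to 400 kb and 4.16 from 400 to 800 kb. They were 4.28 from 800 to 1200 kb and 3.03 (2.69 to 3.41) beyond 1200 kb. At matched distances shorter intervals held more, with 13.6 (13.1 to 14.0) within 50 kb and 5.41 (5.06 to 5.77) from 400 to 800 kb. Gene-body cover in the gaps was 47.7% within 50 kb and 17.04% beyond 1200 kb. Olfactory and vomeronasal receptors made up 6.47% of genes within 50 kb and 28.5% beyond 1200 kb, so the other genes thinned out more, with 8.55 per Mb at the edge and 2.17 per Mb beyond 1200 kb.

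**Figure D4:**
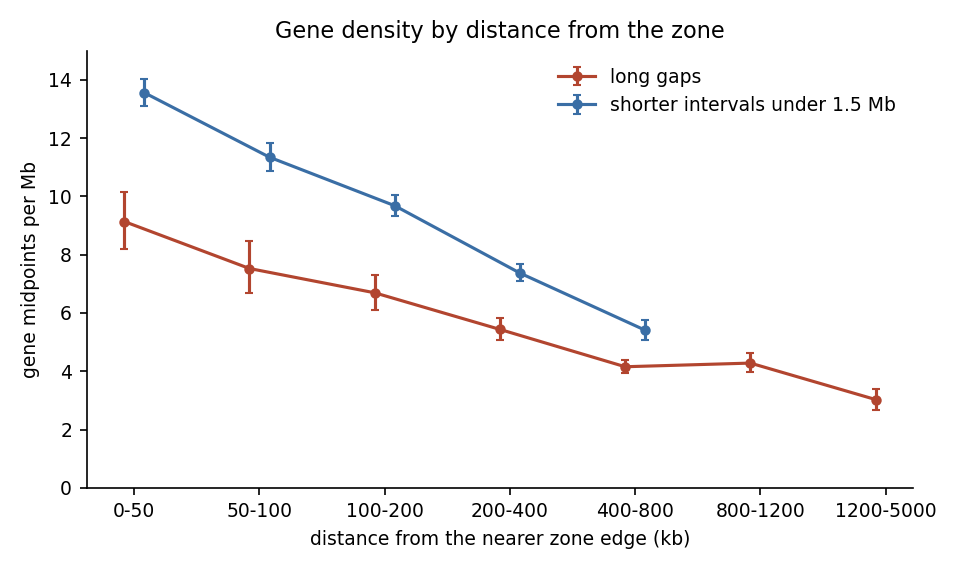
Protein-coding gene midpoints per Mb by distance in kb from the nearer zone edge, in long gaps (red) and in shorter intervals (blue), with exact Poisson 95% intervals. Long gaps lie below shorter intervals in all 5 shared classes, with 9.14 against 13.6 genes per Mb within 50 kb and 4.16 against 5.41 from 400 to 800 kb.

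Gap edges lay inside a gene less often than edges of shorter intervals, at 47.6% (354 of 744, 44.0 to 51.2%) against 59.3% (2806 of 4730, 57.9 to 60.7%). Reading direction was taken for the 3111 genes wholly in long gaps and the 7730 wholly in shorter intervals that had a promoter sequence outside chromosome 18, by the distance of the nearer gene end from the zone. Of those within 50 kb, 41.3% (83 of 201, 34.7 to 48.2%) pointed away from the zone in long gaps, against 49.4% (933 of 1888, 47.2 to 51.7%) in shorter intervals. From 50 to 100 kb the share was 53.3% (46.6 to 59.8%) in long gaps, against 52.1% in shorter intervals. Over all distances it was 49.9% (48.1 to 51.6%) in long gaps, against 49.4% in shorter intervals.

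Promoters in the gaps held fewer CpG. A promoter was called CpG-rich when its observed over expected CpG was at least 0.6 and its GC content at least 50%, which held for 47.3% of all genes with a promoter sequence. The share was 29.2% (907 of 3111, 27.6 to 30.8%) for genes wholly in long gaps, against 43.8% (42.7 to 44.9%) in shorter intervals and 63.4% (62.1 to 64.7%) for genes overlapping a zone. Of the receptors, 1 of 661 olfactory and vomeronasal promoters in the gaps was CpG-rich (0.151%). Outside the long gaps it was 0 of 597 (upper bound 0.639%), so this trait of the receptors is not particular to the gaps. Without receptors the shares were 37.0% in long gaps (35.1 to 38.9%), 47.1% in shorter intervals and 64.1% over zones. With receptors kept, the median observed over expected CpG was 0.299 in long gaps, 0.547 in shorter intervals and 0.738 over zones. Median GC content was 48.7%, 56% and 60.3% in the same order. The letters TATAAA, searched on both strands, occurred in 24.4% of promoters in long gaps, 13.1% in shorter intervals and 8.23% over zones, against 13.5% of all promoters of the same 300 bases. A match of these letters is not a TATA box as such.

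**Figure D5:**
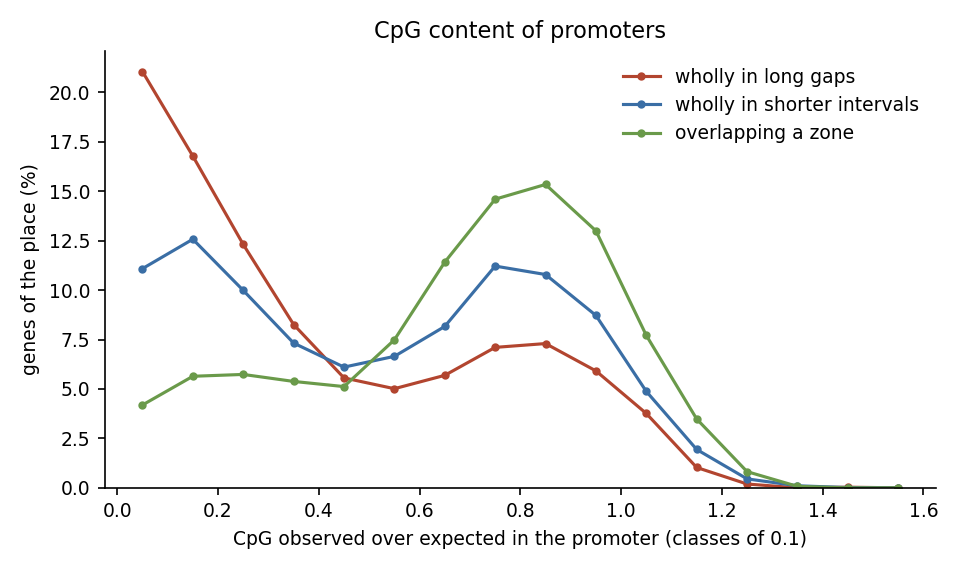
Distribution of CpG observed over expected in promoters (horizontal axis, no unit, classes of 0.1) as the percentage of genes in each place, for genes wholly in long gaps (red), wholly in shorter intervals (blue) and overlapping a zone (green). All 3 places show a low and a high class of promoter, and the medians are 0.299 in long gaps, 0.547 in shorter intervals and 0.738 over zones.

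CpG-rich promoters also became rarer towards the middle of the gaps. Leaving only olfactory and vomeronasal receptors out, their share was 46.7% (41.7 to 51.8%) for genes less than 100 kb from a zone and 41.5% from 100 to 400 kb. It was 35.6% from 400 to 800 kb, 25.7% from 800 to 1200 kb and 21.7% (15.9 to 28.7%) beyond 1200 kb. The letters TATAAA went the other way up to 1200 kb, in 11.96% of promoters below 100 kb and 30.7% from 800 to 1200 kb, and were in 26.8% beyond 1200 kb. Families in the gaps differed in this respect. The CpG-rich share was 44.8% (26 of 58, 32.7 to 57.5%) for Zfp genes and 47.6% (10 of 21, 28.3 to 67.6%) for synaptic adhesion genes, though Lrrc4c, shown above with 6 CpG, was not among the 10. It was 23.8% (5 of 21, 10.6 to 45.1%) for voltage-gated channels and 10.5% (2 of 19, 2.94 to 31.4%) for cytochrome P450 genes. None of 64 keratin promoters was CpG-rich, which allows up to 5.66%, nor any of 35 lectin and killer receptor promoters, which allows up to 9.89% (Wilson 95% bounds), and TATAAA occurred in 76.6% (49 of 64) of the keratin ones. Keratins and lectin and killer receptors stayed in the shares by distance given above. Their members in long gaps lay at medians of 755 kb and 923 kb from a zone.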

How the data were processed

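The deposited list gives, per the file headers, a breakpoint bin for each zone, a minimum and a maximum beside it, and distances between them in bp; this unit is neither a count nor a signal, and the depth is unknown. The authors' tools were bcl2fastq, Bowtie, BWA 0.7.13, SAMtools, Picard 2.8.2 and Trim Galore 0.4.2 on mm10, per the submitters' processing notes; how each was set was not given in the sources used here. Zones ran from the minimum to the maximum bin. Genes came from a RefSeq table of GRCm38.p6, without 333 taken as lying on scaffolds (starts below 3 Mb or out of order). Each gene had 1 promoter, the one whose start site was closest to its outer end. The start site was at the outer end itself in 9841 of 16457 genes, and within 500 bases of it in 86.4%. Chromosome 18 was left out, and 82.1% of the other protein-coding genes had a sequence (83.3% in long gaps). Lists with a promoter for fewer than 80% of genes, such as defensins, were not described by promoter.

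The gaps and the gene lists were chosen with earlier results of these data known. Genes named are those longest or farthest from a zone in the 12 longest gaps, farthest in each list, longest of all, or nearest to the middle of the richest gaps; Rag1, Rag2, Hbb, desmosomal genes and the Mir344, let-7 and miR-99 clusters were named after their places were seen. Some genes that this rule takes in are not reported here. Gene orientation, the distance profile, gene length classes, V segments and gaps by list members were added after the data were seen. Code was checked on simulated zones and genes. Python 3.11.15, numpy 2.4.6, pandas 2.3.3, scipy 1.17.1 and matplotlib 3.10.9 were used. Intervals are at 95%.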

Additional observations from a re-analysis of the deposited data

How the results depend on the processing

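No paired analysis was possible because the zone list comes from 1 library. The values moved with the definition of a gap, but long gaps stayed poorer in genes than shorter intervals: by gene midpoints the ratio of long over shorter was 0.490 with a split at 1 Mb, 0.517 at 1.5 Mb and 0.508 at 2 Mb.

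With a minimum of 1 Mb there were 705 gaps, holding 30.4% of protein-coding genes at 4.99 genes per Mb, with 33.0% of bases in gene bodies and a median gene of 15.4 kb. With a minimum of 2 Mb there were 178 gaps, holding 10.2% of genes at 4.14 per Mb, with 28.8% of bases in gene bodies and 5.62% of gaps without a gene. Gene midpoints gave 19.9% of genes, 4.88 per Mb, a median gene of 15.6 kb and a median promoter CpG observed over expected of 0.322, and any overlap gave 20.4% of genes. Without olfactory and vomeronasal receptors the share was 16.1%, the density 3.67 per Mb, the median gene 20.4 kb, the median CpG observed over expected 0.430 and the CpG-rich share 37.0%. Without the gap richest in genes the share was 18.1%. The median gap held 2.55 genes per Mb. Counting genes of all kinds gave 12.4 per Mb, 38.9% of bases in gene bodies and 0% of gaps without a gene, where 3 gaps would be 0.806%. Gaps that no protein-coding gene overlapped were 3.76%. A stricter CpG threshold (0.75 and 55% GC), chosen after the data were seen, gave 19.03% in long gaps, 28.6% in shorter intervals and 42.7% over zones.

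The number of gaps kept within 1.5 times of 372 when narrower zones, below the median width, were dropped (518), by distance between breakpoint bins (451) and with chromosome ends added (379). Of the 19 lists, 8 lay at 1.5 times the share of all genes or more, against 9 by midpoints, 8 at 1 Mb and 10 at 2 Mb. The lists were not the same ones: at 1 Mb cadherins (63.3%) were above that ratio and synaptic adhesion genes (42.1%) were not. Depth is unknown, and how reads aligned over the gaps was not tested.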
